A study of Bos taurus with 14 samples.

Results

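AGMO, PDE8B and PARM1 are 3 of the 27607 Ensembl genes counted in the liver of 14 newborn heifer calves. They were picked by name, each through the identifier that the study's gene list pairs with it: ENSBTAG00000034154 for AGMO, ENSBTAG00000020205 for PDE8B and ENSBTAG00000015919 for PARM1. The choice was made because these genes stood among those with the smallest p of the genes higher in VTM, so their difference between the diets is described below and not tested. VTM calves were born to heifers that received a premix of vitamins and minerals with a basal ration, 113 g per heifer per day, starting 60 days before breeding and kept up until calving. The premix was given loose on top of the ration and, late in gestation, mixed into it. CON calves were born to heifers on the basal ration alone. The dams were crossbred Angus-based heifers bred with female-sorted semen of a single bull. All calves, in both groups, were taken from the dam before suckling and given colostrum replacer and then milk replacer by tube, and the labels place liver collection at 30 h after birth. Each library is the liver of 1 calf, and a calf is named here by its diet and the number in its label. The study kept 12 calves, 6 per diet, and left out VTM calf 10 and CON calf 19 because their rate of unique alignment did not pass its minimum. Values of the 3 genes are given over the 12 first and then over all 14, with 7 per diet.

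AGMO (alkylglycerol monooxygenase) is a membrane enzyme that uses tetrahydrobiopterin and oxygen to cleave the ether bond of alkylglycerols, and it is the known route by which ether lipids lose their alkyl chain. Liver is a main site of its activity. PDE8B is a phosphodiesterase of high affinity for cyclic AMP, the messenger through which glucagon and adrenaline act on hepatocytes, and it ends that signal by hydrolysis. PARM1 (prostate androgen-regulated mucin-like protein 1) is a heavily O-glycosylated membrane protein, first described in prostate, that passes through the Golgi and endosomes. The 3 lie on different chromosomes in the RefSeq gene table, where AGMO sits between DGKB and MEOX2, PDE8B between ZBED3 and WDR41, and PARM1 between BTC and RCHY1. None of these neighbours was paired with an identifier, and they are not analysed here.

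Total counts ranged from 14989388 to 20125409 over the 12 libraries and from 13382264 in VTM calf 10 over all 14. Some libraries stood apart. VTM calf 40 had 12212 genes above 0 counts and 318 genes with 1 to 9 counts, against medians of 16346 and 2841.5 over the 12. CON calf 31 had the lowest TMM scaling factor, 0.698, and CON calf 19 had 1265 genes with 1 to 9 counts. The fits were therefore also run without VTM calf 40 and CON calf 31. Their values are given for the 3 genes. For the other genes of the pathway and cell type lists they are given where they end a call or move a value by more than 1.5 times. In bulk liver, fewer cells of a type and less RNA per cell cannot be told apart.

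Expression is given in CPM, read counts scaled to a common library size with edgeR's TMM factors, which sets a level between calves and not between genes of different length. All 3 genes passed edgeR's filter on low counts, as did 13307 genes in all. In read depth, as mean CPM with no account of gene length, AGMO was above 66.8% of the tested genes, PARM1 above 31.8% and PDE8B above 20.3%. Differences between the diets are given as log2 fold changes (log2FC) of VTM relative to CON from edgeR's quasi-likelihood test, with their standard error (SE). The study's threshold was an unadjusted p of 0.05 or less from a model across all genes and an absolute log2FC of 0.5 or more. All 3 genes were past it on the side higher in VTM. Of all 13307 genes tested, 115 genes, 0.864%, were past it on that side and 2.85% on the other, and nothing is read from the comparison because the genes were chosen there. Counting both directions, 3.71% of genes were past it. DESeq2 put 4.73% past it, and the edgeR fit on all 14 calves 2.07%. No gene, 0% of those tested, had a Benjamini-Hochberg adjusted p at or below 0.05. The lowest was 0.791 with edgeR, where 690 genes had an unadjusted p of at most 0.05, and 0.0844 with DESeq2, where 880 did.

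AGMO, the ether lipid enzyme, had between 403 and 697 raw counts in the 6 VTM calves (median 590.5) and between 204 and 466 in the 6 CON calves (median 257.5). After scaling, the VTM calves ranged from 21.6 CPM in calf 34 to 41.0 CPM in calf 16, with a median of 31.3 CPM. The CON calves ranged from 13.6 CPM in calf 1 to 23.7 CPM in calf 7, with a median of 17.7 CPM. The groups overlapped because VTM calf 34 lay below CON calves 7 and 37, while the other 5 VTM calves were above every CON calf. VTM was higher in 34 of the 36 pairs of a VTM and a CON calf. VTM calves averaged 31.4 ± 7.23 CPM and CON calves 18.5 ± 3.90 CPM (SD, n = 6 per diet), a log2FC of 0.76 (SE 0.19), or 1.69-fold. With counts this high, counting error was small, 0.0465 as a coefficient of variation at the median count, and the variation between calves that edgeR estimated for AGMO was 0.246, against a median of 0.333 over all tested genes.

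PDE8B, the cyclic AMP phosphodiesterase, had the fewest reads and varied most between calves of the 3. Raw counts lay between 44 and 185 in VTM (median 73.5) and between 10 and 56 in CON (median 22.5). The 10 counts of CON calf 25 have an exact 95% Poisson interval of 4.80 to 18.4 counts, and the 185 counts of VTM calf 4 one of 159.3 to 213.7, intervals that cover counting error only. VTM calves ranged from 2.36 CPM in calf 34 to 9.45 CPM in calf 4, with a median of 3.98 CPM. CON calves ranged from 0.790 CPM in calf 25 to 2.84 CPM in calf 7, with a median of 1.39 CPM. VTM calves 4, 22, 28 and 40 were above every CON calf, although calf 40, at 2.88 CPM, was hardly above CON calf 7, and VTM calves 16 and 34 lay below CON calf 7. VTM calves averaged 4.67 ± 2.72 CPM and CON calves 1.57 ± 0.724 CPM (SD, n = 6 per diet), and the log2FC was 1.57 (SE 0.43). The VTM calves thus varied by 58.2% of their mean and the CON calves by 46.2%, against 23.0% and 21.1% in AGMO. The variation between calves that edgeR estimated was 0.506 for PDE8B, above its counting error of 0.151 as a coefficient of variation at the median count.

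PARM1, the mucin-like protein, was the one gene of the 3 in which the groups of 12 calves did not overlap. Raw counts lay between 104 and 218 in VTM (median 149.0) and between 25 and 89 in CON (median 76.5). VTM calves ranged from 6.12 CPM in calf 16 to 11.1 CPM in calf 4, with a median of 7.54 CPM. CON calves ranged from 1.97 CPM in calf 25 to 4.69 CPM in calf 13, with a median of 4.35 CPM. Each of the 6 VTM calves exceeded all CON calves, which held for 12 of 13307 tested genes, 0.0902%. Among the CON calves, 5 lay close together, between 4.01 and 4.69 CPM, and calf 25 stood far below them. VTM calves averaged 8.04 ± 1.81 CPM and CON calves 3.99 ± 1.01 CPM (SD, n = 6 per diet), a log2FC of 1.01 (SE 0.25).

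**Figure D1:**
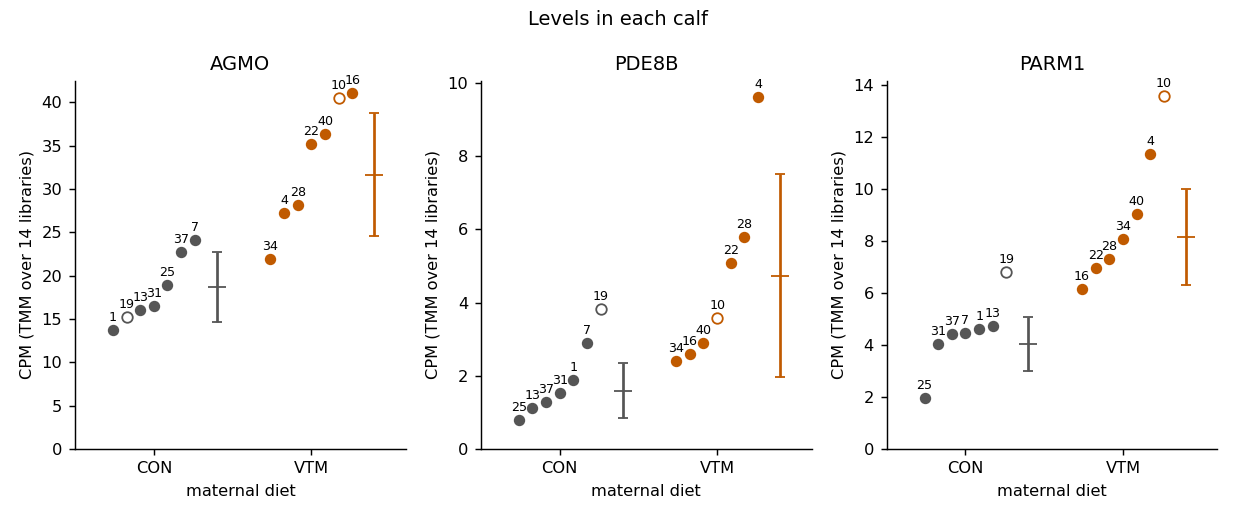
CPM of AGMO, PDE8B and PARM1 (vertical axes, TMM factors set over all 14 libraries) in each CON and VTM calf (horizontal axis, calves ordered by level and marked by number). Filled points are the 12 calves kept by the study, open points are VTM calf 10 and CON calf 19, and bars show the mean and SD of the 6 kept calves per diet. In PARM1 the filled points of the diets do not overlap, and the open point of CON calf 19, at 6.80 CPM, lies within the VTM range.

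VTM calf 10 and CON calf 19 had no part in the choice of the genes. With 1 calf per diet their values carry no test. On a scale set over all 14 libraries, AGMO was at 40.6 CPM in VTM calf 10 and 15.2 CPM in CON calf 19, a ratio of 2.67. PARM1 was at 13.6 CPM in VTM calf 10, the highest of the 14 calves, and at 6.80 CPM in CON calf 19, a ratio of 2.0. PDE8B was at 3.58 CPM in VTM calf 10 and 3.82 CPM in CON calf 19, a ratio of 0.937. In AGMO and PARM1 the left-out VTM calf was thus the higher of the pair, and in PDE8B the calves were at nearly the same level, with 48 and 59 raw counts whose exact Poisson intervals (35.4 to 63.6 and 44.9 to 76.1 counts) overlap.

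Over all 14 calves the groups overlapped in each of the 3 genes. In AGMO, VTM was higher in 47 of 49 pairs of calves, again with VTM calf 34 below CON calves 7 and 37. In PARM1 it was higher in 48 of 49, the exception being VTM calf 16, at 6.13 CPM, below CON calf 19. Of 13311 genes tested over the 14 calves, 2 genes, 0.015%, showed no overlap with VTM on the higher side, and PARM1 was not among them. In PDE8B it was higher in 42 of 49, since VTM calves 10, 16, 34 and 40 were below CON calf 19 and calves 16, 34 and 40 also below CON calf 7 on this scale. Log2FC values over the 14 calves were 0.86 for AGMO, 1.01 for PARM1 and 1.26 for PDE8B.

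Leaving out each of the 12 calves in turn moved the log2FC of AGMO between 0.67 without VTM calf 16 and 0.85 without VTM calf 34. That of PARM1 moved between 0.87 without CON calf 25 and 1.08 without VTM calf 16. For PDE8B the range was wider, from 1.24 without VTM calf 4, the highest VTM calf, to 1.83 without CON calf 7, the highest CON calf. Without both VTM calf 40 and CON calf 31 the values were 0.69 for AGMO, 1.67 for PDE8B and 0.98 for PARM1.

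**Figure D2:**
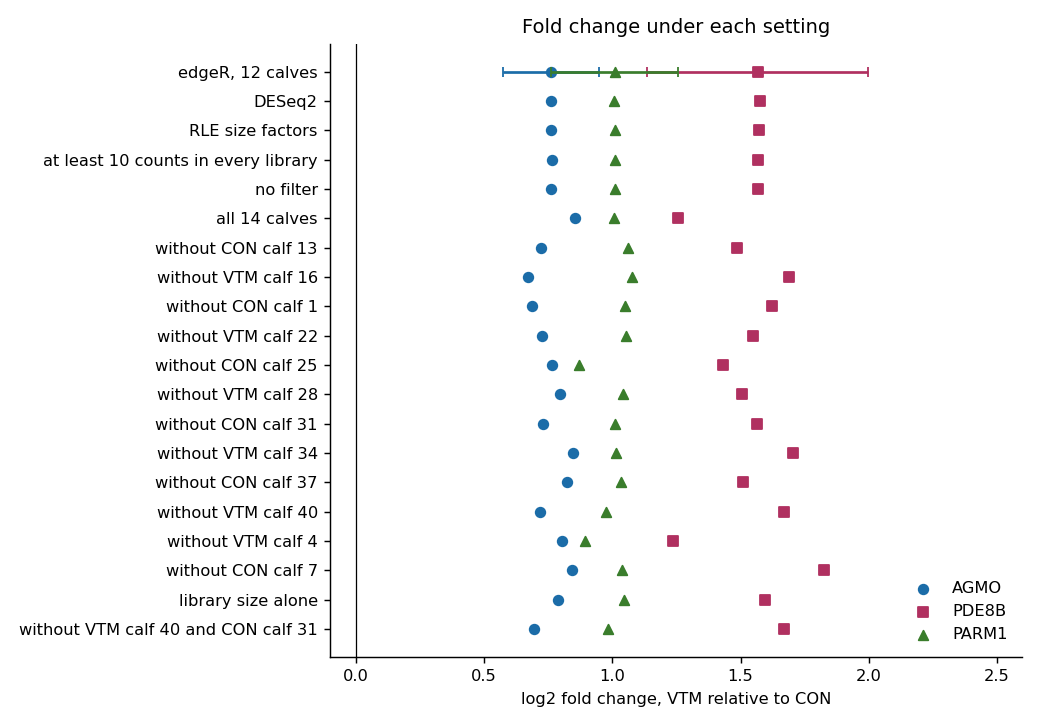
Log2 fold change of VTM relative to CON (horizontal axis) for AGMO, PDE8B and PARM1 under each setting (vertical axis), with the edgeR standard error drawn on the top row. PDE8B moves most, from 1.24 without VTM calf 4 to 1.83 without CON calf 7, and AGMO stays between 0.67 and 0.86.

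Ranks are given within a diet, because the genes were chosen for being higher in VTM and ranks over both diets favour VTM calves. Among the 6 VTM calves, calf 40 had ranks 2, 2 and 4 in AGMO, PARM1 and PDE8B, and calf 28 had ranks 4, 4 and 2. Among the 7 VTM calves of all 14, calf 10 had ranks 2, 1 and 4. Within VTM, calf 16 had rank 1 of 6 in AGMO, rank 5 in PDE8B and rank 6 in PARM1. Calf 4 had rank 1 in both PDE8B and PARM1 and rank 5 in AGMO. Calf 34 was lowest in AGMO and PDE8B and had rank 3 in PARM1. Within CON, calf 7 had rank 1 in AGMO and PDE8B and rank 3 in PARM1, and calf 25 had rank 6 in PDE8B and PARM1 and rank 3 in AGMO. Over the 12 calves and over the 14, no calf was the highest of its group in all 3 genes or the lowest in all 3.

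Correlations were taken within a diet, because the genes were chosen for a difference between diets, on log2 CPM of 6 calves, with 2-sided exact permutation tests over all 720 pairings and Benjamini-Hochberg adjustment over the 6 relations. AGMO and PARM1 had Pearson's r = -0.43 in VTM (exact p = 0.394, adjusted 0.789; Spearman's rho = -0.54, exact p = 0.297, adjusted 0.803). In CON they had r = -0.16 (exact p = 0.854, adjusted 0.854; rho = -0.43, exact p = 0.419, adjusted 0.803). AGMO and PDE8B had r = -0.19 in VTM (exact p = 0.758, adjusted 0.854; rho = -0.14, exact p = 0.803, adjusted 0.803) and r = 0.17 in CON (exact p = 0.768, adjusted 0.854; rho = 0.14, exact p = 0.803, adjusted 0.803). PARM1 and PDE8B had positive values in both groups, r = 0.51 in VTM (exact p = 0.315, adjusted 0.789; rho = 0.37, exact p = 0.497, adjusted 0.803) and r = 0.63 in CON (exact p = 0.274, adjusted 0.789; rho = 0.31, exact p = 0.564, adjusted 0.803). None of the 6 relations passed 0.05.

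Without the 2 calves farthest from the median of the first gene, r of AGMO and PARM1 was -0.34 in VTM and -0.21 in CON, and r of AGMO and PDE8B was -0.84 in VTM and -0.20 in CON, over 4 calves each. For PARM1 and PDE8B it was -0.78 in VTM without calves 4 and 16 and -0.43 in CON without calves 25 and 31. With a single calf left out, r of this pair was negative without VTM calf 4, at -0.22, and without CON calf 25, at -0.15, and stayed positive without each of the other calves. Over 7 calves per diet, PARM1 and PDE8B in CON had r = 0.78 (exact permutation p = 0.0349, adjusted 0.210), and r = -0.09 without calves 19 and 25.

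**Figure D3:**
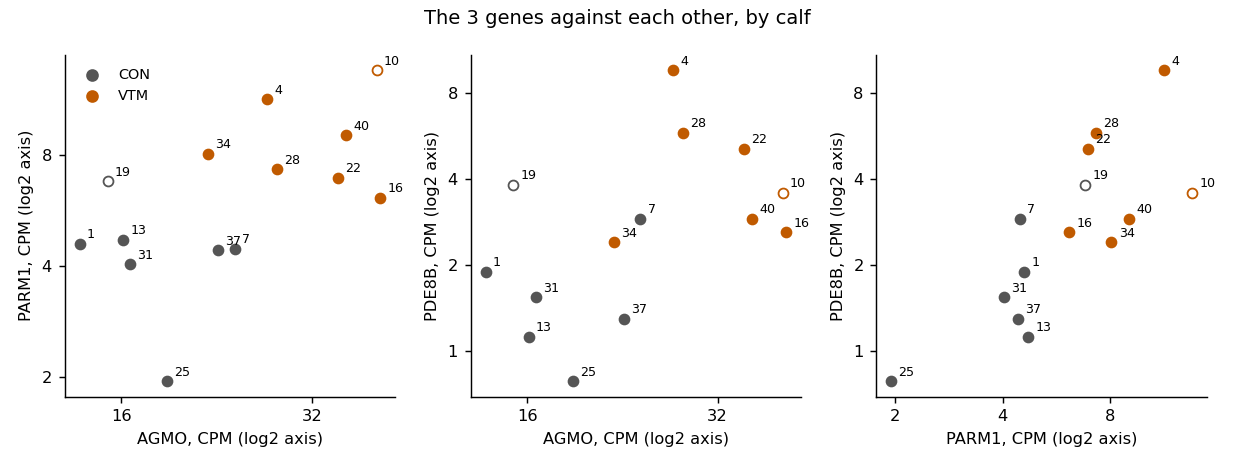
Each calf's CPM in one gene against another, on log2 axes, for AGMO and PARM1, AGMO and PDE8B, and PARM1 and PDE8B, with CON and VTM calves in 2 colours, calf numbers beside the points and open points for VTM calf 10 and CON calf 19. Among VTM calves, calf 16 is far right in AGMO and low in PARM1, while calf 10 is also far right in AGMO and is highest in PARM1. Among CON calves, calf 25 is lowest in PARM1 and PDE8B, and far below the others in PARM1.

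The genes most like each of the 3 were sought by the correlation of deviations from the group means, over the 12 calves, among 610 genes with a name and a mean of at least 1 CPM. These are descriptions over 12 points that share libraries and depth. Most of the genes with a name have it because the study listed them as differentially expressed in these calves. That one of them is past the threshold, where 3.71% of all tested genes were, is therefore no independent evidence. For PARM1 the most alike gene was CWC27, a cyclophilin of the spliceosome, with r = 0.94, the highest of all 13306 other tested genes. The value was 0.93 within VTM and 0.99 within CON, 0.84 without CON calf 25 and 0.80 over all 14 calves. CWC27 lay between 6.00 and 8.83 CPM in VTM (median 7.40) and between 1.74 and 6.36 CPM in CON (median 5.74), and its log2FC of 0.56 (SE 0.28) was not past the threshold. UMAD1 (r = 0.80) and VKORC1L1, a paralogue of the vitamin K epoxide reductase (r = 0.76), came next among the named genes. They were at places 92 and 175 among all tested genes, and both were lowest without CON calf 25, at 0.52 and 0.55. UMAD1 was at low levels, from 1.64 to 6.73 CPM in VTM and from 0 to 2.48 CPM in CON. Its log2FC of 1.365 (SE 0.71) was not past the threshold, and that of VKORC1L1, 0.63 (SE 0.28), was.

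For AGMO the most alike named genes were HEYL, a Notch-responsive transcriptional repressor (r = 0.69), the carbonic anhydrase CA3 (r = 0.62) and the syntaxin-binding protein STXBP5 (r = 0.61), at places 33, 78 and 80 among all tested genes. HEYL and CA3 followed AGMO closely within CON, at 0.93 and 0.97, and less within VTM, at 0.45 and 0.28. With 1 of the 12 calves left out, both were lowest without CON calf 7, at 0.61 and 0.51. Their log2FC values were -0.62 (SE 0.28) and -0.99 (SE 0.39), opposite in sign to AGMO, and that of STXBP5 was 0.62 (SE 0.28), of the same sign, all 3 past the threshold. STXBP5 had r = 0.35 over all 14 calves. For PDE8B they were OTULINL, an OTU-domain protein (r = 0.66), TP73 of the p53 family (r = 0.60) and LGR4, a receptor for R-spondins (r = 0.60), at places 97, 227 and 238. LGR4 had r = 0.77 within VTM and 0.23 within CON. OTULINL had 0.66 and 0.68, and TP73 had 0.58 and 0.65. With 1 calf left out, OTULINL and LGR4 were lowest without VTM calf 4, at 0.56 and 0.42. TP73 was lowest without CON calf 7, at 0.45. The log2FC values of OTULINL, TP73 and LGR4 were -0.61 (SE 0.26), -2.22 (SE 0.85) and 0.53 (SE 0.22). TP73 was at low levels, from 0 to 0.871 CPM in VTM (median 0.301) and from 0.194 to 6.24 CPM in CON (median 1.275). Over all 14 calves TP73 had r = 0.0895. PARM1 and PDE8B themselves had r = 0.54 on this measure, and 9.89% of tested genes were more like PARM1 than PDE8B was.

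PDE8A is the closest paralogue of PDE8B and hydrolyses the same messenger. It lay between 22.5 CPM in calf 16 and 51.0 CPM in calf 40 among the 6 VTM calves (median 25.5) and between 12.5 CPM in calf 31 and 28.3 CPM in calf 37 among the 6 CON calves (median 20.2). Calves 4 and 40 were the VTM calves above every CON calf, and VTM was higher in 27 of 36 pairs. Its log2FC was 0.55 (SE 0.25), past the threshold. It was not past it without VTM calf 40, at 0.33, VTM calf 4, at 0.52, or CON calves 1, 13, 25 or 31, at 0.57, 0.51, 0.47 and 0.44. Without both VTM calf 40 and CON calf 31 it was 0.23, and over all 14 calves it was 0.37, also not past it. Nor was it past it with library size alone, at 0.55. In the left-out pair PDE8A was lower in VTM calf 10, at 21.9 CPM, than in CON calf 19, at 33.5 CPM.

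Of the reads counted on PDE8A and PDE8B together, PDE8B took between 5.35% and 22.7% in the 6 VTM calves (median 13.98%) and between 4.27% and 10.9% in the 6 CON calves (median 6.77%). The gene lengths were not used, so the share compares calves and not the abundance of the paralogues. VTM calf 4 was highest, at 22.7% (95% Wilson interval 19.96 to 25.7%), and calves 22 and 28 followed at 17.7% each. VTM calf 40, which was highest in PDE8A, had 5.35% (95% Wilson interval 4.06 to 7.02%), below CON calves 1, 7, 13 and 31. VTM calves 4, 22 and 28 were above every CON calf in this share, and calves 16, 34 and 40 were not. VTM calf 10 was at 14.04% and CON calf 19 at 10.2%.

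**Figure D4:**
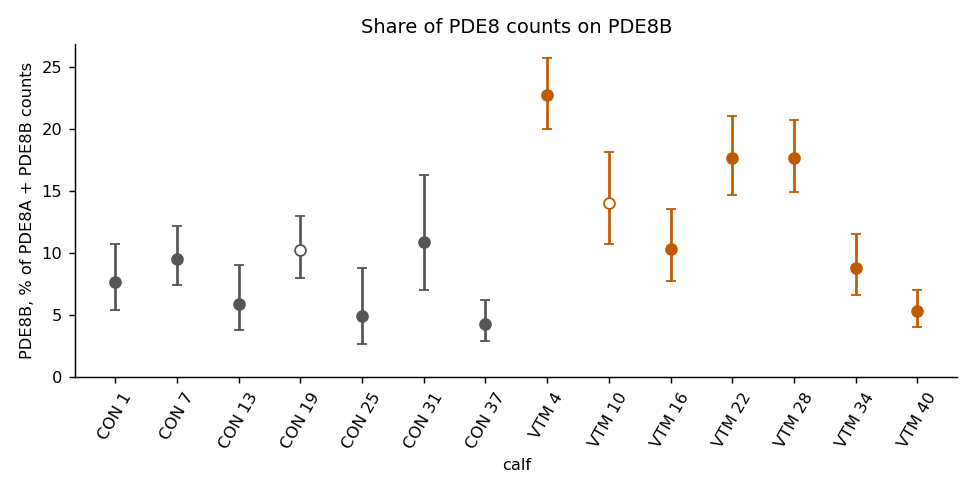
Share of the counts on PDE8A and PDE8B that fell on PDE8B (vertical axis, percent) in each of the 14 calves (horizontal axis), with 95% Wilson intervals for counting error and open points for VTM calf 10 and CON calf 19. VTM calves 4, 10, 22 and 28 lie above all CON calves, and VTM calf 40, at 5.35%, lies among the CON calves.

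The pathways around the 3 genes were followed with 10 lists holding 183 symbols, of which 15 could be paired with an identifier, AGMO, PDE8B and PARM1 included. Most of the other 12 have a name because the study listed them as differentially expressed in these calves. Neither their count past the threshold nor their median log2FC is therefore independent evidence. Of the 12, 3 were past the threshold on the higher side in VTM and 7 on the lower side, where 3.71% of all tested genes were past it in either direction, and their median log2FC was -0.58 against -0.02 over all tested genes. With edgeR the adjusted p was 0.791 for each of them but CREB1, where it was 0.989.

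Around AGMO, 1 other gene of the 18 in the ether lipid list was paired. TMEM86A, a membrane protein related to the lysoplasmalogenase of liver, averaged 28.7 ± 8.05 CPM in VTM calves against 45.6 ± 17.1 CPM in CON calves (SD, n = 6 per diet), a log2FC of -0.67 (SE 0.25), past the threshold. Of the 10 genes listed under the turnover of platelet-activating factor, a signalling ether lipid, 3 were paired, and their action on this factor was not measured. LPCAT4, a lysophospholipid acyltransferase, and PAFAH1B3, a catalytic subunit of an intracellular acetylhydrolase that inactivates the factor, were past the threshold with log2FC of -0.79 (SE 0.30) and -0.73 (SE 0.27). PLA2G7, the secreted acetylhydrolase, averaged 9.98 ± 3.33 CPM in VTM calves against 6.79 ± 1.997 CPM in CON calves (SD, n = 6 per diet), and its log2FC of 0.56 (SE 0.26) was not past it with edgeR and was with DESeq2. Without VTM calf 16, VTM calf 40 or CON calf 13 it was past it with edgeR too, at 0.67, 0.59 and 0.68, and also among genes with at least 10 counts in every calf, at 0.56. TMEM86A was not past the threshold without CON calf 25, at -0.48, nor LPCAT4 without CON calf 31, at -0.60, without both VTM calf 40 and CON calf 31, at -0.45, or over all 14 calves, at -0.61. Of a list of 17 genes for tetrahydrobiopterin and the enzymes that use it, none but AGMO was paired.

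Around PDE8B, 2 other phosphodiesterases of 19 were paired, PDE8A and PDE2A, a phosphodiesterase that cyclic GMP activates. PDE2A lay between 42.6 and 58.0 CPM in VTM and between 57.9 and 92.1 CPM in CON, with a log2FC of -0.52 (SE 0.14), past the threshold. It was not past it over all 14 calves, at -0.41, nor without CON calf 31, CON calf 7 or VTM calf 28, at -0.42, -0.45 and -0.48, nor without both VTM calf 40 and CON calf 31, at -0.41, or with library size alone, at -0.45. Of 27 genes for cyclic AMP synthesis and response, 4 were paired. ADCY2, an adenylyl cyclase, was past the threshold with a log2FC of 0.88 (SE 0.38) and was not over all 14 calves, at 0.38. It was also not past it without CON calf 1 or 25, at 0.77 and 0.78, or without VTM calf 4, 28 or 34, at 0.66, 0.75 and 0.85. PKIG, an inhibitor of protein kinase A, and RAPGEF3, an exchange factor that cyclic AMP activates, were past it on the lower side at -0.65 (SE 0.20) and -0.90 (SE 0.30), and RAPGEF3 was at -0.57 without both VTM calf 40 and CON calf 31. CREB1, the transcription factor that protein kinase A phosphorylates, averaged 2.05 ± 1.10 CPM in VTM calves against 1.94 ± 1.10 CPM in CON calves (SD, n = 6 per diet), a log2FC of 0.07 (SE 0.67). Without both VTM calf 40 and CON calf 31 the log2FC of CREB1 was 0.19.

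Around PARM1, 2 of the other genes in a list of 17 membrane mucins and mucin-like proteins were paired. MUC13, a mucin of epithelial surfaces, averaged 2.16 ± 2.38 CPM in VTM calves against 0.353 ± 0.411 CPM in CON calves (SD, n = 6 per diet). Its log2FC of 2.55 (SE 0.90) was past the threshold, and the VTM calves ranged from 0.564 to 6.55 CPM. It was 1.79 without VTM calf 40, 3.31 without CON calf 1 and 1.56 without both VTM calf 40 and CON calf 31, past the threshold each time. EMCN, the mucin-like endomucin of endothelium, was past it on the lower side at -0.87 (SE 0.34), and without CON calf 7 it was at -0.52 and not past it. No gene was paired of the lists for mucin-type O-glycosylation (27 symbols), the endoplasmic reticulum stress response (24), the liver's response to cyclic AMP (16) or steroid receptors and their targets (9).

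**Figure D5:**
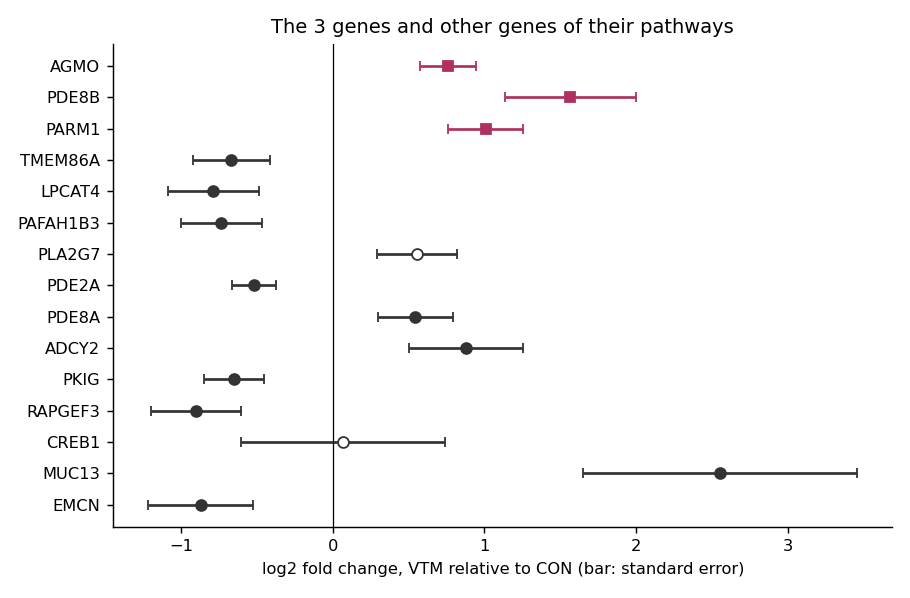
Log2 fold change of VTM relative to CON (horizontal axis, bars are edgeR standard errors, n = 6 per diet) for AGMO, PDE8B and PARM1 (squares) and the 12 other paired genes of their lists (circles), filled where past the threshold. PDE8A, ADCY2 and MUC13 are the circles past it on the higher side, and 7 circles are past it on the lower side.

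Of 64 symbols for liver cell types, 11 were paired, again mostly from the study's own list. The hepatocyte genes AHSG and TTR, 2 of a list of 10, were abundant, with a summed level, nearly all of it AHSG, of 6954 to 16194 CPM in VTM and 5873 to 12282 CPM in CON. They differed in direction. AHSG was past the threshold on the higher side in VTM, at a log2FC of 0.67 (SE 0.28), and TTR was at -0.99 (SE 0.52) and not past it. The stellate cell and fibroblast genes DCN, COL1A1 and COL3A1, 3 of a list of 8, were all past the threshold on the lower side in VTM, with sums of 1112 to 2104 CPM in VTM and 1159 to 3885 CPM in CON. Bile duct genes had sums of 26.9 to 67.5 CPM in VTM and 43.8 to 98.6 CPM in CON over KRT7, KRT19 and SOX9, 3 of a list of 7, of which KRT7 and KRT19 were past the threshold on the lower side and SOX9 was not past it. The endothelial gene STAB1, 1 of a list of 8, lay between 65.2 and 97.2 CPM in VTM and between 76.0 and 249.5 CPM in CON, past the threshold on the lower side. The Kupffer cell gene TIMD4, 1 of 8, lay between 5.81 and 11.1 CPM in VTM and between 6.08 and 29.5 CPM in CON, and the neutrophil gene MPO, 1 of 7, was at 0.871 CPM or less in VTM and 2.61 CPM or less in CON, neither past the threshold. Thus 1 of the 11 was past it on the higher side and 6 on the lower side, where 0.864% and 2.85% of all tested genes were. Over all 14 calves COL3A1, KRT7 and KRT19 were not past it, at -0.49, -0.59 and -0.49. Without both VTM calf 40 and CON calf 31, AHSG, KRT19 and STAB1 were not, at 0.56, -0.57 and -0.31, and TTR was at -0.59. The calls of KRT7, DCN and COL1A1 held in all 12 fits with 1 calf left out, and that of STAB1 in all but those without CON calf 25, CON calf 31, at -0.31, or VTM calf 4. Those of AHSG, KRT19 and COL3A1 held in 4 of 12 each. These were the fits without CON calf 7 or 13 or VTM calf 4 or 16 for AHSG, CON calf 1, 13 or 25 or VTM calf 28 for KRT19, and CON calf 1, 25 or 31 or VTM calf 28 for COL3A1. Of the markers not past the threshold over the 12 calves, TIMD4 was past it in 4 of the 12 fits with 1 calf left out. TTR was past it in 2 of them, MPO in 1 and SOX9 in 0. No lymphocyte or erythroid marker was paired. The part of cell composition in the levels of AGMO, PDE8B and PARM1 was not tested.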

How the data were processed

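Directional RNA-Seq libraries were made from the liver of 14 calves. The reads were trimmed and mapped by the authors with STAR 2.7.5 on ARS-UCD1.2, and the read count of each Ensembl gene was deposited without normalization or filter. Which strand column of STAR was used is not given in the sources used here, so reads of antisense transcripts cannot be told apart. Each calf is 1 replicate, in the group its title gives. Names were paired with 629 identifiers through the study's supplementary tables, used as a dictionary only, since the RefSeq gene table (ARS-UCD2.0) holds no Ensembl identifiers, and no coordinates or sequences are printed. Columns of the authors' own comparisons in those tables were not used.

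Counts of the 12 kept calves were tested with edgeR 4.0.16 in R 4.3.3 (filterByExpr, TMM, quasi-likelihood test, diet as the only term, Benjamini-Hochberg adjustment). DESeq2 1.42.0, RLE factors, other filters, all 14 calves and each calf left out were alternatives. Library size alone, and leaving out VTM calf 40 with CON calf 31, were chosen after seeing the data. Log2 CPM used a prior count of 2. The fit and the permutation code were tested on simulated data. Named genes are the 3 genes, PDE8A, paired genes of the fixed lists and the 3 most alike genes of each. One gene of the marker lists is not reported here. The genes and lists were chosen with earlier results of these data known. Python 3.11.15 with scipy 1.17.1 gave correlations and intervals. Of the 3 genes, PDE8B is the one whose precision total counts of 13382264 to 20125409 per calf limit most.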

Additional observations from a re-analysis of the deposited data

Results flagged for a closer look

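In the 12 calves, CON calf 25 stood apart from the other CON calves in PARM1, at 1.97 CPM against 4.01 CPM in the next lowest and 4.69 CPM in the highest. The gap to the next calf was 0.752 of the whole range, above the 95% limit of Dixon's test for 6 values. Its raw count was 25, with an exact 95% Poisson interval of 16.2 to 36.9 counts that covers counting error only. The same calf was lowest in PDE8B and had rank 3 of 6 in AGMO. Its TMM factor over the 12 calves was 0.846, against 0.703 in CON calf 31 and at least 0.980 in the others, and its part in the result was not tested. PARM1 had a log2 fold change of 0.87 when CON calf 25 was left out. Over all 14 calves no calf was marked in this way. In all, 12 groups of values were examined, and chance alone marks about 1 in 20.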

How the results depend on the processing

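The log2 fold changes of AGMO, PDE8B and PARM1 kept their direction in the 12 fits with 1 calf left out and under the 7 other alternatives run for each. The number of all genes past the threshold, 494, became 1003 with no filter, 275 over all 14 calves and 310 with library size alone. With 1 calf left out it ranged from 286 to 1039, with 743 without CON calf 1, 305 without CON calf 25, 286 without CON calf 31 and 1039 without CON calf 37. Of the 12 other genes of the lists, 10 were past the threshold, 6 over all 14 calves, 7 without VTM calf 40 and CON calf 31, and between 7 and 11 with 1 calf left out. The log2 fold change of CREB1 changed sign, with a range of -0.10 to 0.39 when 1 calf was left out. The cause of these shifts was not tested.

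Over all 14 calves, r of AGMO and PARM1 in VTM became 0.0239 and r of AGMO and PDE8B in CON became -0.0764. With 1 calf left out, r of AGMO and PARM1 ranged from -0.60 to -0.12 in VTM and from -0.354 to 0.0172 in CON, r of AGMO and PDE8B from -0.899 to 0.0862 in VTM and from -0.58 to 0.50 in CON, and r of PARM1 and PDE8B from -0.22 to 0.67 in VTM and from -0.15 to 0.78 in CON. No p was computed for these values over 5 calves. No paired analysis was possible because no calf number occurs in both groups. Depth limits PDE8B most, with as few as 10 counts in a calf.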
